A study of Mus musculus with 12 samples.

Results

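Genes for potassium, anion, calcium and other cation channels were followed in mouse mpkCCDc11 cells, a clonal immortalised line of the kidney cortical collecting duct. They were chosen by symbol: every gene of the Kcn, Clcn, Clic, Ano, Trpc, Trpm, Trpv, Cacn, Lrrc8 and Piezo families, together with Cftr, Pkd1 and Pkd2, that had at least 30 reads summed over the 12 libraries. Of the 25208 genes in the deposited table, 106 matched by symbol and 77 of these reached the read minimum. The rule used the summed reads, so the levels below describe the members and are not tested. Just inside the minimum lay Trpc5os with 37 reads and Cacna1d with 39, and just outside it Trpm1 with 25 and Cftr with 22. Of the 77 genes, 66 passed the filter on low counts and were tested. The 11 others were Cacna1d, Cacna1i, Cacnb4, Cacng1, Kcnj4, Kcnk13, Kcnn4, Kcnrg, Trpc5os, Trpm3 and Trpv2.

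The study asked how beta-catenin, the product of Ctnnb1, bears on the genes that respond to vasopressin. Cells were transfected with Ctnnb1 siRNA (labelled as a Ctnnb1 knockdown) or control siRNA (labelled WT), each at 50 nM. They later received 1 nM dDAVP (desmopressin, which activates the V2 receptor of vasopressin) on the basolateral side for 24 h, or vehicle. The 4 groups were Ctnnb1 siRNA with dDAVP, Ctnnb1 siRNA with vehicle, control siRNA with dDAVP and control siRNA with vehicle, with 3 libraries each. All groups had grown for 4 days on permeable supports and had spent 24 h without serum and hormones before treatment. Sequencing was of total RNA after removal of ribosomal RNA. The model is a single line in culture in which part of the Ctnnb1 message remained, and the labels do not say whether replicates were separate cultures, so a p-value here reflects how far these libraries differ, which may be technical variation alone.

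Principal cells of the collecting duct take up sodium through an apical sodium channel and secrete potassium through apical potassium channels, while basolateral potassium channels set the membrane voltage that drives both. Chloride crosses through channels or between cells, and calcium-permeable channels of the TRP, polycystin and Piezo families sense flow, stretch and osmolality. Vasopressin acts through the V2 receptor and cAMP and is best known for raising water permeability through aquaporin-2, and cAMP also acts on several channels directly.

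Libraries held 32997720 to 48935473 counted reads, and channel genes took 0.285% to 0.310% of the reads in each. Ctnnb1 stood at 306 to 342 CPM (reads of a gene per library, normalised for depth) in the 6 Ctnnb1-siRNA libraries, against 745 to 811 CPM in the 6 control-siRNA libraries (log2 fold change -1.25 ± 0.033, standard error, averaged over both treatments). Replicate 3 of Ctnnb1 siRNA with dDAVP stood apart: chi-square per degree of freedom between it and replicates 1 and 2 of its group was 42.8 and 69.4, against 5.34 to 25.4 for every other pair of replicates. Of 11 principal cell markers 8 averaged at least 1 TPM (transcript abundance scaled for gene length and library size), among them the V2 receptor gene Avpr2, Scnn1a, Hsd11b2 and Gata3, while Aqp4, Scnn1b and Elf5 were below that. Markers of intercalated cells were partly present (Atp6v1b1 59.7 TPM), but its defining genes Foxi1 and Slc26a4 had no row in the table and Slc4a1 averaged 0.005 TPM. Summed markers of the thick ascending limb did not exceed 0.42 TPM and those of endothelium 0.2 TPM in any library.

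Levels ran over 4 orders of magnitude. By mean TPM over the 12 libraries, a unit that allows genes of different length to be compared, 9 of the 77 genes lay at 50 or more, 19 between 10 and 50, 16 between 1 and 10, 19 between 0.1 and 1 and 14 below 0.1. The highest was Clic1, a small protein found in soluble and membrane forms, at 351 TPM, which alone made up 23.6% of the summed TPM of the channel genes. Next came Kcnk1 (TWIK-1, a background potassium channel) at 174 TPM, Clcn3 (a chloride-proton exchanger of endosomes) at 80.2 TPM, and Trpv4 (a calcium-permeable channel opened by cell swelling and flow) at 72.8 TPM. Trpm7 (66.6 TPM, a magnesium- and calcium-permeable channel fused to a kinase), Trpc4ap (62.9 TPM, a protein that binds TRP channels), Clic4 (61.0 TPM), Ano6 (57.1 TPM, a calcium-activated lipid scramblase and channel) and Cacnb3 (52.3 TPM, a beta subunit of voltage-gated calcium channels) completed the set at 50 TPM or more.

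**Figure D1:**
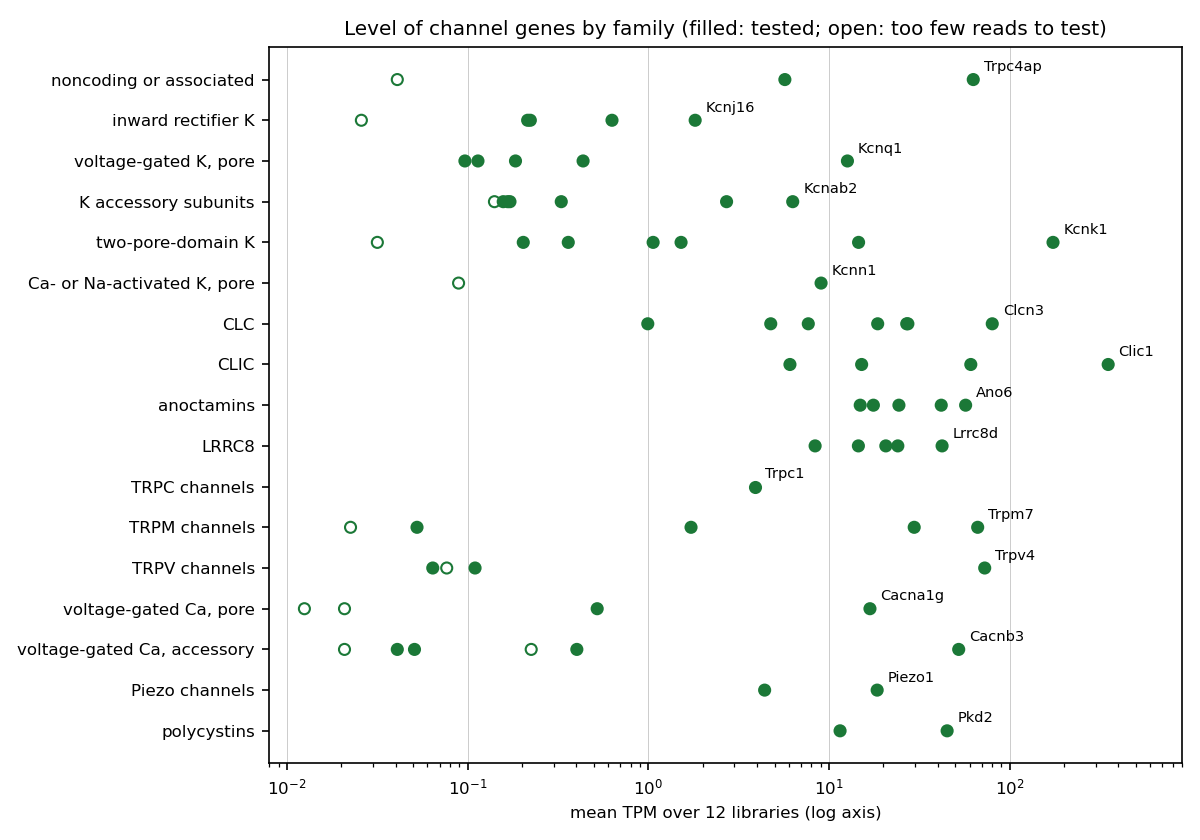
Mean TPM over the 12 libraries (log axis) of the channel genes, 1 row per family and 1 point per gene, with the highest gene of each family named; filled points were tested and open points had too few reads. CLIC, two-pore-domain potassium, CLC and TRPV genes held the highest points, from Clic1 at 351 TPM to Trpv4 at 72.8 TPM, and inward rectifier genes stayed at or below 1.82 TPM.

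Potassium channel genes were led by 1 two-pore-domain gene. Kcnk1 made up 88.9% to 92.1% of the two-pore-domain TPM over the libraries, and Kcnk5 (TASK-2, a background channel opened by alkaline pH) averaged 14.6 TPM. Kcnk7 and Kcnk10 averaged 1.52 and 1.06 TPM, and Kcnk2, Kcnk4 and Kcnk13 from 0.0317 to 0.361 TPM. The only voltage-gated pore gene above 1 TPM was Kcnq1 (12.7 TPM), whose channel takes on different gating with different KCNE partners; Kcnh2, Kcnd1, Kcnh3 and Kcnh6 ranged from 0.0967 to 0.436 TPM. Of the calcium-activated pore genes, Kcnn1 (SK1, of small conductance) averaged 9.05 TPM and Kcnn4 0.0892 TPM, and Kcnma1, the BK channel of flow-induced potassium secretion, had 5 reads over all libraries. Inward rectifiers were low: Kcnj16 and Kcnj10, which form the basolateral Kir4.1/Kir5.1 channel of the distal nephron, averaged 1.82 and 0.630 TPM, and Kcnj1 (ROMK, the apical secretory channel of principal cells) had 14 reads in all. Kcnj13, Kcnj14 and Kcnj4 lay between 0.0258 and 0.222 TPM. Accessory genes were led by the beta subunits Kcnab2 (6.30 TPM) and Kcnab3 (2.71 TPM), ahead of Kcnip3, Kcnip2, Kcnmb4, Kcne2 and Kcnrg at 0.141 to 0.330 TPM.

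All 9 CLC, 4 CLIC and 5 LRRC8 genes matched by symbol were members, and 5 of 8 anoctamins. Among CLC genes the intracellular exchangers predominated: Clcn3 made up 46.4% of the CLC TPM on average, ahead of Clcn7 (27.4 TPM, lysosomal), Clcn4 (27.0 TPM), Clcn5 (18.6 TPM, endosomal, the gene of Dent disease) and Clcn6 (7.69 TPM). Of the plasma membrane channels, Clcn2 averaged 4.76 TPM and Clcn1 0.994 TPM. The ClC-7 subunit gene Ostm1 averaged 36.1 TPM. Volume-regulated anion channel genes were led by Lrrc8d at 38.4% of the family's TPM, then Lrrc8b at 21.9%, the obligatory subunit gene Lrrc8a at 18.8%, Lrrc8e at 13.3% and Lrrc8c at 7.63%. Lrrc8a shares 2853 of its annotated exonic bases with Gm28035 on the same strand, so its counts are uncertain. Of the anoctamins, Ano6 (57.1 TPM) and Ano1 (41.8 TPM, the calcium-activated chloride channel) were ahead of Ano8, Ano10 and Ano9 at 14.9 to 24.4 TPM. Clic5 averaged 6.08 TPM and Clic3 15.2 TPM. Cftr, the cAMP-activated chloride channel, had 1 read in Ctnnb1-siRNA dDAVP, 2 in Ctnnb1-siRNA vehicle, 6 in control-siRNA dDAVP and 13 in control-siRNA vehicle libraries, and was not a member.

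Among cation channels, Trpv4 made up at least 99.2% of the TRPV TPM in every library; Trpv6, Trpv2 and Trpv3 averaged 0.110, 0.0767 and 0.0642 TPM, and Trpv5, the calcium entry channel of the distal convoluted tubule, had 6 reads. TRPM genes were led by Trpm7, then Trpm4 (29.6 TPM, a calcium-activated sodium and potassium channel) and Trpm6 (1.72 TPM, the magnesium entry channel of the distal convoluted tubule), with Trpm5 and Trpm3 at 0.0525 and 0.0225 TPM. Pkd2, the polycystin-2 channel of primary cilia, averaged 45.1 TPM and its receptor-like partner Pkd1 11.5 TPM. The stretch-activated Piezo1 averaged 18.5 TPM and Piezo2 4.41 TPM; 2441 exonic bases of Piezo1 and 693 of Pkd1 overlap genes on the opposite strand (Ctu2 and Tsc2), and use of the strand in counting is not given in the sources used here. Cacna1g, a T-type calcium channel, was the only voltage-gated calcium pore above 1 TPM (16.9 TPM); Cacna1a averaged 0.522 TPM and Cacna1i and Cacna1d 0.0208 and 0.0125 TPM. Beside Cacnb3, the accessory genes Cacnb1, Cacng1, Cacna2d4, Cacna2d1 and Cacnb4 ranged from 0.0208 to 0.402 TPM, and Trpc1 averaged 3.90 TPM. Kcnq1ot1, the noncoding antisense transcript of the Kcnq1 locus, averaged 5.70 TPM, and Trpc5os 0.0408 TPM.

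Promoter windows of the genes that responded are shown because dDAVP acts through cAMP and beta-catenin acts with TCF/LEF factors, for each of which a short DNA motif is known. Each window holds 250 bases before and 50 after an annotated start, read 5′ to 3′ on the gene's strand from RefSeq on GRCm38.p6; capitals mark TGACG or CGTCA (the cAMP response element half-site on either strand) and CTTTGAT or CTTTGAA on either strand (TCF/LEF). The first 3 belong to genes that rose with dDAVP and the last 3 to genes that fell; of the 2 annotated starts of Clcn4 and Kcnn1, the one nearer the 5′ end of the gene is shown.
Trpv4 chr5:114658372-114658671, minus strand: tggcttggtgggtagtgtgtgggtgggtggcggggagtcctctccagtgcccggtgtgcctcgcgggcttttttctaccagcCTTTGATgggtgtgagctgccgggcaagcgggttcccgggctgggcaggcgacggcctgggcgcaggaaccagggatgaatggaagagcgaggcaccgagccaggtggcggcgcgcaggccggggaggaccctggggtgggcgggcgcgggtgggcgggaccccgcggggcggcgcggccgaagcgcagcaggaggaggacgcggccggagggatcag
Kcnk1 chr8:125994852-125995151, plus strand: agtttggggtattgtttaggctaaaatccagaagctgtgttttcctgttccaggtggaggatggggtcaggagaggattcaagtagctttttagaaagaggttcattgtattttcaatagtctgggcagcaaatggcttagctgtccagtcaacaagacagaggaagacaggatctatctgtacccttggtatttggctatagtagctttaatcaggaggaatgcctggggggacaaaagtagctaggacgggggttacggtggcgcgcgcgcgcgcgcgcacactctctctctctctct
Kcnk5 chr14:20181733-20182032, minus strand: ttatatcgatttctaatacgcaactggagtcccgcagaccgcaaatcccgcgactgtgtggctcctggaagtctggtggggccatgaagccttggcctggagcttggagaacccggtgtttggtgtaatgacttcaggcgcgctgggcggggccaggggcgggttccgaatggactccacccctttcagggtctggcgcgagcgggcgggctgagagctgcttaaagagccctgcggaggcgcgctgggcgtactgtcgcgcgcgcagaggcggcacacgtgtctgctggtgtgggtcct
Clcn2 chr16:20716587-20716886, minus strand: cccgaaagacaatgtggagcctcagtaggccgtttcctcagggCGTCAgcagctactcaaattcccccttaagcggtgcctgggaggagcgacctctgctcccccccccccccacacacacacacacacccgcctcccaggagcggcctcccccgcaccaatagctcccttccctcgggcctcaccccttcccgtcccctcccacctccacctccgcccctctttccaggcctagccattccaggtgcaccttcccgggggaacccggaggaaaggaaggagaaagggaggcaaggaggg
Clcn4 chr7:7299508-7299807, minus strand: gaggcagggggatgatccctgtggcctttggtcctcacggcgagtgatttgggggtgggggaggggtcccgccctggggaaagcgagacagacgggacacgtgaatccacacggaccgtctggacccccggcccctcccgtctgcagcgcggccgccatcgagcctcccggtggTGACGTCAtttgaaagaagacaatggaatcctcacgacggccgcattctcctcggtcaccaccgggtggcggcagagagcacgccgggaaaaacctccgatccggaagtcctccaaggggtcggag
Kcnn1 chr8:70863209-70863508, minus strand: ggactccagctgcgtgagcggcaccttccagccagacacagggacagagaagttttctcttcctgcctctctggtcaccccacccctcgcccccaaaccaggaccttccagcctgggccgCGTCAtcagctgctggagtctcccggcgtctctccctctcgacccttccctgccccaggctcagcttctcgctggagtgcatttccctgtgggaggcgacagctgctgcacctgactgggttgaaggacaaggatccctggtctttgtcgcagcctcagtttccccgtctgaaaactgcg

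The Clcn4 window held the full palindrome TGACGTCA, with its first base at position -76 from the start. Half-sites began at -207 in Clcn2 and -130 in Kcnn1. CTTTGAT began at -168 in Trpv4, and the Kcnk1 and Kcnk5 windows held none of these letters. Kcne2 held half-sites at -222 and -118. It passed the filter on low counts only through dDAVP libraries, so it is not counted here among genes that rose. Over all 17 windows of the 13 genes with one that were called in any comparison, TGACG occurred on either strand in 6 (35.29%). It occurred in 16 of 54 windows of tested channel genes not called (29.63%), and in 20.81% of all 32851 windows of that length. The called genes included Kcne2, and Trpc1, Clic5 and Ano1, which were called for Ctnnb1 siRNA and not for dDAVP. Windows of Kcne2 and Trpc1 were among those with TGACG, so 35.29% is not a share among genes that responded to dDAVP. TGACGTCA occurred in 5.88% of windows of called genes, 3.7% of windows of tested channel genes not called and 1.79% of all windows. For the TCF/LEF letters these shares were 5.88%, 9.26% and 8.65%. Median GC content was 63% in the windows of called genes, 60.5% in those of tested channel genes not called and 52.67% in all windows. The Kcnk1, Clcn2, Clcn4 and Kcnn1 windows lay wholly inside the annotated gene, so the 5′ ends of these genes were not examined. Of the 77 channel genes 61 had a window, and Kcnq1, Ano8 and Cacna2d4 were among those without.

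dDAVP changed 13 of the 66 tested channel genes when its effect was averaged over both siRNAs, at an adjusted p under 0.05 by edgeR's quasi-likelihood test with Benjamini-Hochberg adjustment over all 16508 tested genes. Of these, 6 were higher (Trpv4, Kcnq1, Kcnk5, Kcnk1, Clic4 and Kcne2) and 7 lower, among them Kcnn1, Clcn2, Ano8, Clcn4, Cacnb3 and Pkd2. Kcne2 passed the filter on low counts only through dDAVP libraries, so its call is no support for a difference and 5 remain without it. Over all tested genes this comparison called 6.86%, with 4.33% higher and 2.54% lower. The median log2 fold change of the 66 genes was -0.016, against -0.0046 over all tested genes. By class, 4 of 23 tested potassium channel genes were higher, Kcne2 among them, and 1 lower. Of 23 anion channel genes 1 was higher and 4 lower, and of 18 calcium and cation channel genes 1 was higher and 2 lower. In RNA from whole cultures, fewer cells of a type and less RNA per cell cannot be told apart.

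**Figure D2:**
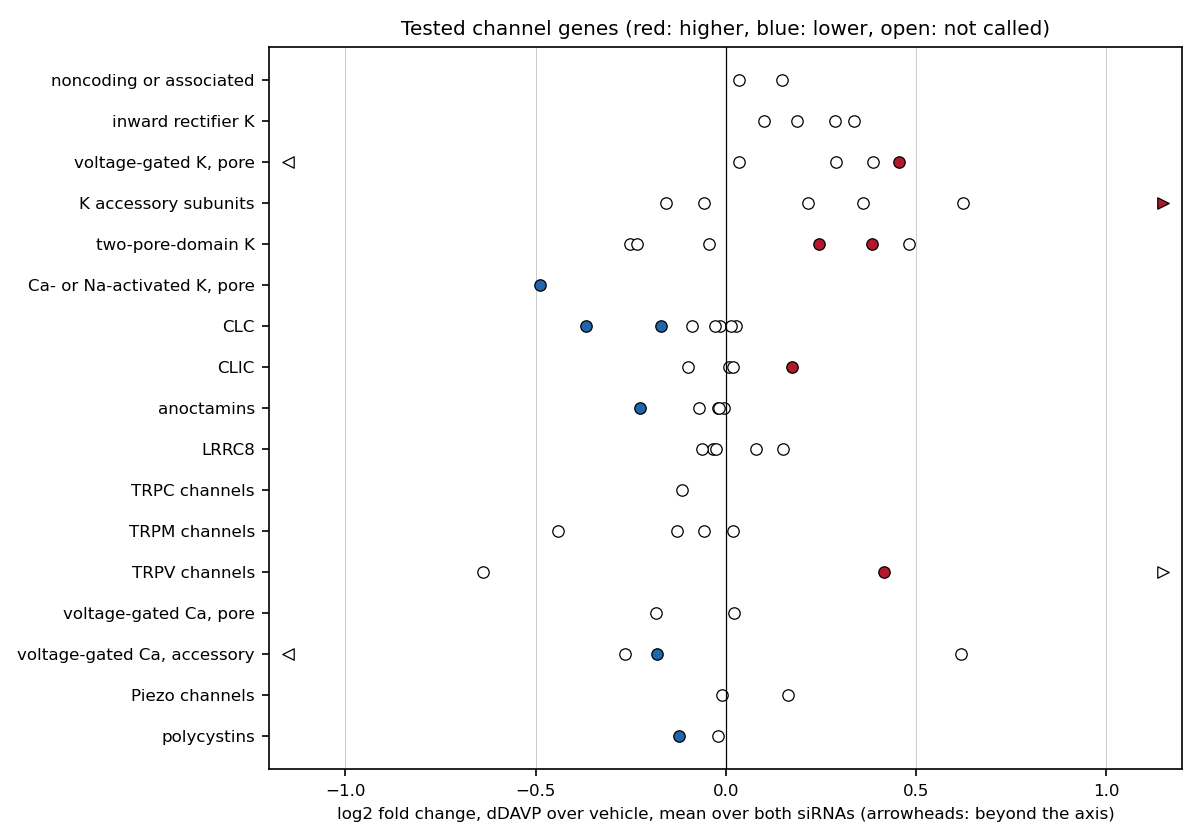
Log2 fold change of dDAVP over vehicle, averaged over both siRNAs, for tested channel genes, 1 row per family and 1 point per gene (red higher, blue lower, open not called; arrowheads lie beyond the axis). Called points were higher in two-pore-domain and voltage-gated potassium genes, CLIC and TRPV genes. They were lower in CLC, anoctamin, calcium-activated potassium, calcium channel beta subunit and polycystin genes. The only called accessory potassium gene was Kcne2, which passed the filter on low counts only through dDAVP libraries.

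Each dDAVP comparison on its own called 7 channel genes. With Ctnnb1 siRNA, 5 were higher (Trpv4, Kcnq1, Kcnk5, Kcnk1 and Clic4) and 2 lower, Clcn2 among them, where 2.78% of all tested genes were called (2.08% higher and 0.697% lower). With control siRNA, 4 were higher (Trpv4, Kcnq1, Kcnk5 and Kcnk1) and 3 lower (Kcnn1, Ano8 and Cacna2d4), where 2.83% of all tested genes were called (1.91% higher and 0.915% lower). The 4 genes called higher with both siRNAs were 4 of 7 in each list. These comparisons share no library but share the estimate of the spread, so the lists are not independent. The overlap over all tested genes is not given here. The counts moved with single libraries and with the scale. Shares of all tested genes called under these settings are not given here, so the moves may not be particular to channel genes. With Ctnnb1 siRNA, 4 were called without vehicle replicate 2 or 3 of that siRNA, and 1 higher and 1 lower on log2(TPM + 1). With control siRNA, 4 were called without dDAVP replicate 1 or 2, 2 without dDAVP replicate 3 or vehicle replicate 2 or 3, 11 without the Ctnnb1-siRNA dDAVP library that stood apart, and 1 higher and 4 lower on log2(TPM + 1).

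Trpv4 had the smallest adjusted p of the channel genes in both. The gene lies on chromosome 5, 114622152 to 114658435, minus strand (GRCm38.p6). In cells given Ctnnb1 siRNA it stood at 138, 128 and 141 CPM with dDAVP, against 97.8, 99.1 and 102 CPM with vehicle. In cells given control siRNA it stood at 138, 137 and 137 CPM with dDAVP, against 102, 109.6 and 104 CPM with vehicle. All 6 dDAVP libraries lay above all 6 vehicle libraries. On average over both siRNAs the log2 fold change was 0.42 ± 0.035 (standard error; 1.34-fold, adjusted p = 1.33e-06), with 0.44 ± 0.049 after Ctnnb1 siRNA and 0.39 ± 0.049 after control siRNA. The interaction was 0.05 ± 0.070 (adjusted p = 0.960). The call held in every alternative run, in all of its dDAVP comparisons.

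Kcnq1 rose by a like amount. The gene lies on chromosome 7, 143106877 to 143427050, plus strand (GRCm38.p6). After Ctnnb1 siRNA it had 22.05, 21.4 and 22.3 CPM with dDAVP, against 15.8, 16.3 and 15.9 CPM with vehicle. After control siRNA it had 23.2, 20.5 and 25.0 CPM with dDAVP, against 17.9, 16.0 and 16.1 CPM with vehicle. The lowest dDAVP library of either siRNA lay above the highest vehicle library. On average its log2 fold change was 0.46 ± 0.056 (1.37-fold, adjusted p = 6.99e-05), and the single comparisons gave 0.46 with Ctnnb1 siRNA (adjusted p = 0.00365) and 0.46 with control siRNA (adjusted p = 0.00353). On log2(TPM + 1) the single comparisons missed the threshold (adjusted p = 0.1 and 0.0607 by limma). Kcnq1ot1, which shares 121 exonic bases with Kcnq1 on the opposite strand, had an averaged log2 fold change of 0.15 ± 0.11 (adjusted p = 0.534) and 202 to 308 CPM over the libraries.

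Kcne2 and Kcne1, subunits that change the gating of Kcnq1 channels, had few reads. Kcne2 counted 13, 13 and 11 reads with dDAVP and 6, 0 and 0 with vehicle after Ctnnb1 siRNA, and 9, 10 and 8 with dDAVP and 2, 0 and 4 with vehicle after control siRNA. Groups did not overlap within either siRNA, but a gene that passes the filter through its dDAVP libraries alone had to differ, so this is a description. The Kcne2 call (adjusted p = 0.0349 on average) was lost with DESeq2, without the filter on low counts, and without any 1 of 10 of the 12 libraries (all but Ctnnb1-siRNA vehicle replicate 1 and Ctnnb1-siRNA dDAVP replicate 3), with adjusted p from 0.00567 to 0.0971 over all alternatives. Kcne1, below the read minimum, had 8 reads in the Ctnnb1-siRNA dDAVP and 12 in the Ctnnb1-siRNA vehicle libraries, against 0 in all 6 control-siRNA libraries, and was not tested.

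Both abundant two-pore-domain genes rose: Kcnk1 (chromosome 8, 125993655 to 126030685, plus strand) and Kcnk5 (chromosome 14, 20140057 to 20181782, minus strand). Kcnk1 had 226, 221 and 209 CPM with dDAVP against 175, 180.4 and 187 CPM with vehicle after Ctnnb1 siRNA, and 220.3, 242 and 228 CPM with dDAVP against 191, 198 and 204 CPM with vehicle after control siRNA. Kcnk5 had 28.3, 28.4 and 32.1 CPM with dDAVP against 21.7, 21.4 and 24.0 CPM with vehicle after Ctnnb1 siRNA, and 26.9, 26.4 and 29.0 CPM with dDAVP against 21.8, 20.8 and 21.2 CPM with vehicle after control siRNA. For both genes every dDAVP library lay above every vehicle library. The averaged log2 fold change was 0.25 ± 0.036 for Kcnk1 (1.19-fold, adjusted p = 0.000414) and 0.39 ± 0.051 for Kcnk5 (1.31-fold, adjusted p = 0.000163), and both calls held in every alternative run. Within control siRNA the calls were less firm. There, the Kcnk1 call was lost on log2(TPM + 1), without any of the 3 vehicle libraries, without dDAVP replicates 2 or 3 and without Ctnnb1-siRNA vehicle replicate 2 (adjusted p from 0.00936 to 0.135 over left-out libraries). The Kcnk5 call was lost there on log2(TPM + 1) and without vehicle replicates 2 or 3 or dDAVP replicate 3 (from 0.00270 to 0.0667). Within Ctnnb1 siRNA both were lost on log2(TPM + 1), with adjusted p = 0.0824 for Kcnk1 and 0.152 for Kcnk5. Every call described here as lost on log2(TPM + 1) was also lost on log2(TPM + 0.1). Kcnk1 shares 179 exonic bases with the antisense gene Gm45875.

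**Figure D3:**
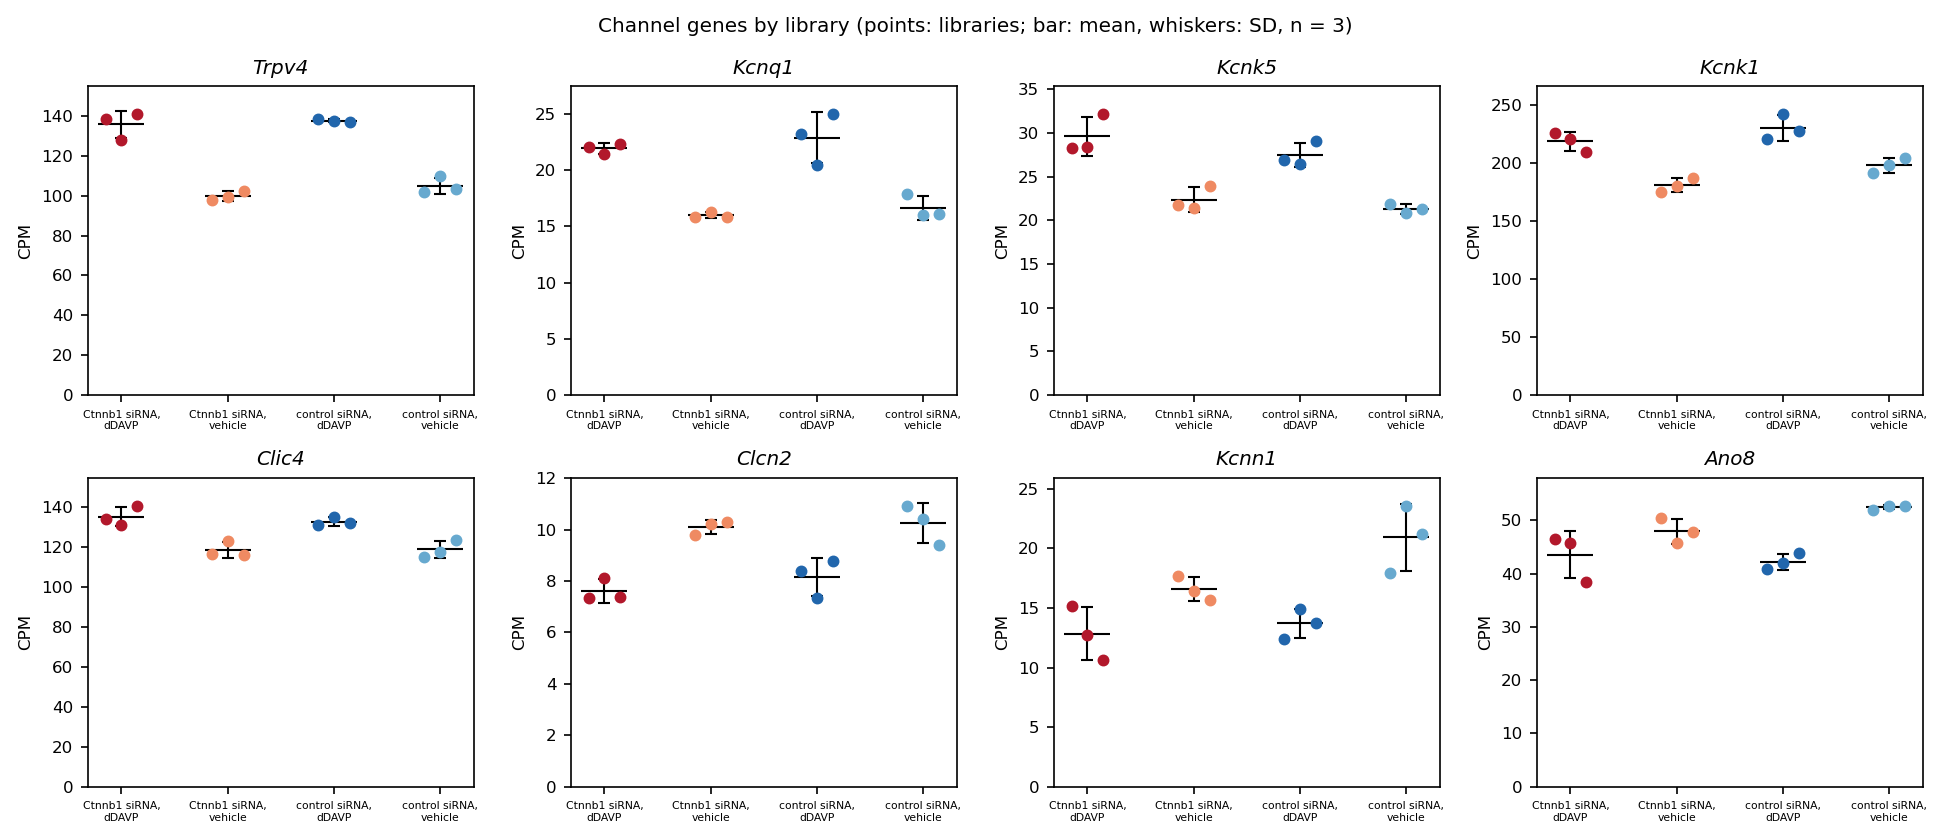
CPM of 8 channel genes in each of the 12 libraries (points), with the mean and SD of each group (bar and whiskers, n = 3); every axis starts at 0. For Trpv4, Kcnq1, Kcnk5, Kcnk1 and Clic4 the dDAVP points lie above the vehicle points of the same siRNA, and for Clcn2 and Kcnn1 below them, while the Ano8 groups overlap after Ctnnb1 siRNA.

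Kcnn1 fell with dDAVP. The gene lies on chromosome 8, 70843158 to 70865691, minus strand (GRCm38.p6). After Ctnnb1 siRNA it had 15.1, 12.7 and 10.7 CPM with dDAVP, against 17.7, 16.5 and 15.7 CPM with vehicle. After control siRNA it had 12.4, 14.9 and 13.8 CPM with dDAVP, against 17.97, 23.6 and 21.2 CPM with vehicle. All dDAVP libraries lay below all vehicle libraries, although the Ctnnb1-siRNA groups came close at 15.1 CPM with dDAVP and 15.7 CPM with vehicle. Its drop averaged over both siRNAs was, as a log2 fold change, -0.49 ± 0.087 (1.40-fold lower, adjusted p = 0.00211), a call that held in every alternative run. In the single comparisons the change was -0.37 ± 0.12 with Ctnnb1 siRNA (adjusted p = 0.150) and -0.61 ± 0.12 with control siRNA (adjusted p = 0.0120), and their difference was 0.24 ± 0.17 (adjusted p = 0.925). The control-siRNA call was lost without vehicle replicates 2 or 3 or dDAVP replicates 1 or 3 (adjusted p from 0.00230 to 0.0840).

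The other potassium channel genes were not called for dDAVP. Kcnj16 had 3.94, 3.86 and 4.78 CPM with dDAVP against 3.33, 3.403 and 3.61 CPM with vehicle after Ctnnb1 siRNA, and 3.23, 4.02 and 3.03 CPM with dDAVP against 2.88, 2.86 and 2.10 CPM with vehicle after control siRNA. The groups did not overlap within either siRNA, but the averaged log2 fold change of 0.34 ± 0.11 had an adjusted p of 0.0968. Its partner Kcnj10 gave 0.10 ± 0.14 (adjusted p = 0.785). Kcnh3, at 0.114 TPM, gave -1.34 ± 0.44 (adjusted p = 0.0901). It passed the filter on low counts mainly through vehicle libraries, so its estimate is a description and no support for a difference. For Kcnab2 the averaged value was -0.06 ± 0.059, for Kcnab3 -0.16 ± 0.11, and for Kcnmb4 0.36 ± 0.54.

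Of the CLC genes, Clcn2 and Clcn4 fell with dDAVP, and none was called higher. Clcn2, a chloride channel opened by hyperpolarisation and cell swelling, had 7.33, 8.14 and 7.37 CPM with dDAVP against 9.77, 10.2 and 10.3 CPM with vehicle after Ctnnb1 siRNA, and 8.38, 7.33 and 8.78 CPM with dDAVP against 10.9, 10.4 and 9.39 CPM with vehicle after control siRNA. All 6 dDAVP libraries lay below all 6 vehicle libraries. The averaged log2 fold change was -0.37 ± 0.069 (1.29-fold lower, adjusted p = 0.00336) and held in every alternative run. With Ctnnb1 siRNA alone the adjusted p was 0.0358, lost on log2(TPM + 1), in the fit of the 2 groups alone, and without any 1 of control-siRNA vehicle replicate 2, the 3 Ctnnb1-siRNA vehicle libraries and Ctnnb1-siRNA dDAVP replicates 1 and 3 (from 0.0276 to 0.142). With control siRNA alone it was 0.101. Clcn2 shares 85 exonic bases with Fam131a and 82 with Polr2h, both on the opposite strand.

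Clcn4, an endosomal exchanger, had 64.3, 63.0 and 55.9 CPM with dDAVP against 63.7, 65.8 and 71.2 CPM with vehicle after Ctnnb1 siRNA, and 54.8, 58.3 and 54.4 CPM with dDAVP against 66.1, 62.3 and 65.3 CPM with vehicle after control siRNA. Groups overlapped after Ctnnb1 siRNA and not after control siRNA. Its mean log2 fold change over both siRNAs was -0.17 ± 0.044 (adjusted p = 0.0257), and the call was lost on leaving out replicate 2 or 3 of Ctnnb1-siRNA vehicle, or replicate 1 or 3 of either control-siRNA group (from 0.0229 to 0.0900). Of its exonic bases 985 lie under the antisense gene Gm45631. The remaining exchangers were not called: the averaged value was -0.02 ± 0.039 for Clcn3, 0.03 ± 0.044 for Clcn5, 0.01 ± 0.055 for Clcn6 and -0.03 ± 0.035 for Clcn7.

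Clic4, a CLIC protein that moves between cytosol and membranes, was higher with dDAVP. It had 134, 131 and 140.5 CPM with dDAVP against 116, 123 and 116 CPM with vehicle after Ctnnb1 siRNA, and 131, 135 and 132 CPM with dDAVP against 115, 117 and 123 CPM with vehicle after control siRNA. All dDAVP libraries lay above all vehicle libraries, by a small margin. The rise averaged over both siRNAs was, on the log2 scale, 0.18 ± 0.034 (1.13-fold, adjusted p = 0.00415), and the call was lost on log2(TPM + 1) (0.212). With Ctnnb1 siRNA alone the adjusted p was 0.0458, and the call held in only 5 of 20 alternatives. Of the 12 libraries left out in turn, it held without control-siRNA dDAVP replicate 2 or Ctnnb1-siRNA dDAVP replicate 2 (from 0.0473 to 0.180). It was also lost without the filter on low counts (0.0565), on log2(TPM + 1) (0.512) and in the fit of the 2 groups alone (0.185). The averaged value was 0.01 ± 0.039 for Clic1, -0.10 ± 0.10 for Clic3 and 0.02 ± 0.059 for Clic5, none of them called.

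Ano8, an anoctamin that tethers the endoplasmic reticulum to the plasma membrane, was lower with dDAVP. After Ctnnb1 siRNA it had 46.5, 45.6 and 38.4 CPM with dDAVP, against 50.4, 45.7 and 47.7 CPM with vehicle. After control siRNA it had 40.9, 42.0 and 43.8 CPM with dDAVP, against 52.0, 52.7 and 52.7 CPM with vehicle. The groups overlapped after Ctnnb1 siRNA and were apart after control siRNA. Averaged over both siRNAs, its log2 fold change was -0.23 ± 0.049 (1.17-fold lower, adjusted p = 0.00866), with -0.14 ± 0.069 after Ctnnb1 siRNA and -0.31 ± 0.069 after control siRNA, and an interaction of 0.17 ± 0.10 (adjusted p = 0.918). Its averaged call held in every alternative run, but the control-siRNA call was lost without any 1 of the 6 control-siRNA libraries (adjusted p from 0.00118 to 0.0987 over left-out libraries). The other 4 anoctamins were not called, with averaged values of -0.02 ± 0.036 for Ano1, -0.02 ± 0.033 for Ano6 and -0.07 ± 0.050 for Ano9.

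No LRRC8 subunit gene was called for dDAVP by edgeR, in a comparison where 6.86% of all genes were. The obligatory subunit gene Lrrc8a had an averaged log2 fold change of -0.03 ± 0.054, and the others ranged from -0.06 for Lrrc8e to 0.15 for Lrrc8c.

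Beside Trpv4, the calcium and cation channel genes called for dDAVP were Cacnb3, Pkd2 and, with control siRNA only among the comparisons, Cacna2d4. Cacnb3 had 67.5, 65.9 and 55.3 CPM with dDAVP against 71.4, 68.5 and 68.1 CPM with vehicle after Ctnnb1 siRNA, and 66.2, 65.2 and 72.1 CPM with dDAVP against 76.9, 81.8 and 78.2 CPM with vehicle after control siRNA. Groups were apart within each siRNA. On average its log2 fold change was -0.18 ± 0.048 (adjusted p = 0.0348), and the call was lost without any 1 of the 6 vehicle libraries and without control-siRNA dDAVP replicates 1 or 2 (from 0.0214 to 0.102).

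Pkd2 had 118, 113 and 120.5 CPM with dDAVP against 121, 129.8 and 130.5 CPM with vehicle after Ctnnb1 siRNA, and 118, 110.0 and 117 CPM with dDAVP against 122, 129 and 126 CPM with vehicle after control siRNA. Every dDAVP library lay below every vehicle library. On the log2 scale the averaged change was -0.12 ± 0.035 (1.09-fold lower, adjusted p = 0.0438); the call was lost on log2(TPM + 1), with DESeq2's size factors, without the filter on low counts and without any 1 of 10 libraries, all but Ctnnb1-siRNA vehicle replicate 1 and Ctnnb1-siRNA dDAVP replicate 3 (from 0.0236 to 0.123). Pkd1 gave -0.02 ± 0.051 and was not called.

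Cacna2d4, an alpha-2-delta subunit gene at 0.0508 TPM, counted 14, 5 and 17 reads in Ctnnb1-siRNA dDAVP, 5, 5 and 11 in Ctnnb1-siRNA vehicle, 0, 0 and 0 in control-siRNA dDAVP and 6, 7 and 11 in control-siRNA vehicle libraries. The absence of reads was thus a feature of 1 group of 3 libraries. With a floor of 3 counts per library it was at least 2.65-fold lower with dDAVP than with vehicle after control siRNA (adjusted p = 0.0227), a call lost with DESeq2, on TPM and without control-siRNA vehicle replicates 2 or 3 or any control-siRNA dDAVP library (from 0.0201 to 0.102). The gene passed the filter on low counts mainly through Ctnnb1-siRNA libraries. Within control siRNA only vehicle replicate 3, with 11 reads, reached the level it asks for. The call thus rests on few reads and is given as a description. The fitted log2 fold change of Cacna2d4 after Ctnnb1 siRNA was 0.66 ± 0.59 (adjusted p = 0.707).

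Of the channels not called, Trpm7 gave an averaged -0.06 ± 0.047, Trpm4 0.02 ± 0.039, Trpm6 -0.13 ± 0.088, Piezo1 -0.01 ± 0.10, Piezo2 0.16 ± 0.079, Cacna1g -0.18 ± 0.064 and Trpc1 -0.11 ± 0.064 on the log2 scale. Trpv6, a calcium entry channel that is regulated by vitamin D, counted 10, 16 and 34 reads with dDAVP and 4, 0 and 0 with vehicle after Ctnnb1 siRNA, and 0, 8 and 13 with dDAVP and 10, 0 and 0 with vehicle after control siRNA. Its groups were apart after Ctnnb1 siRNA and overlapped after control siRNA, and it was not called (averaged log2 fold change 2.38 ± 0.87, adjusted p = 0.133). Without control-siRNA vehicle replicate 1, which held 10 of the 14 vehicle reads, the fitted value was 4.75 and the gene was called (adjusted p = 0.0385). Like Kcne2, Trpv6 passed the filter on low counts only through dDAVP libraries. Its separation, estimate and this call are thus a description and no support for a difference.

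Among marker sums of other cell types, that of the proximal tubule was apart between dDAVP and vehicle with both siRNAs. The 5 proximal tubule markers, of which only Lrp2 exceeded 1 TPM and Slc34a1 had no row, summed to 8.35 to 9.34 TPM with dDAVP and 11.02 to 11.1 TPM with vehicle after Ctnnb1 siRNA, and to 8.7 to 10.7 TPM with dDAVP and 11.3 to 13.4 TPM with vehicle after control siRNA. Principal cell markers summed to 102 to 124 TPM with dDAVP and 100.3 to 105.5 TPM with vehicle after Ctnnb1 siRNA, and to 112 to 146 TPM with dDAVP and 104 to 112 TPM with vehicle after control siRNA. Intercalated cell sums were apart after Ctnnb1 siRNA alone (71.4 to 75.2 TPM with dDAVP and 67.6 to 71.3 TPM with vehicle) and leukocyte sums after control siRNA alone (5.13 to 5.85 TPM with dDAVP and 3.96 to 5.01 TPM with vehicle). The part of these markers in the channel results was not tested.

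The dDAVP effect on the channel genes did not differ detectably between the siRNAs. By edgeR the interaction called 0 of the 66 genes and 0% of all 16508, and DESeq2 also called no channel gene. By edgeR 1 channel gene had an unadjusted p under 0.05 (Cacna2d4, adjusted p = 0.918), where 5.02% of all tested genes did. For the genes named above as changed on average, other than Kcne2, the interaction ranged from -0.08 ± 0.14 for Clcn2 to 0.24 ± 0.17 for Kcnn1. A p that misses the threshold does not show that the responses were alike.

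**Figure D4:**
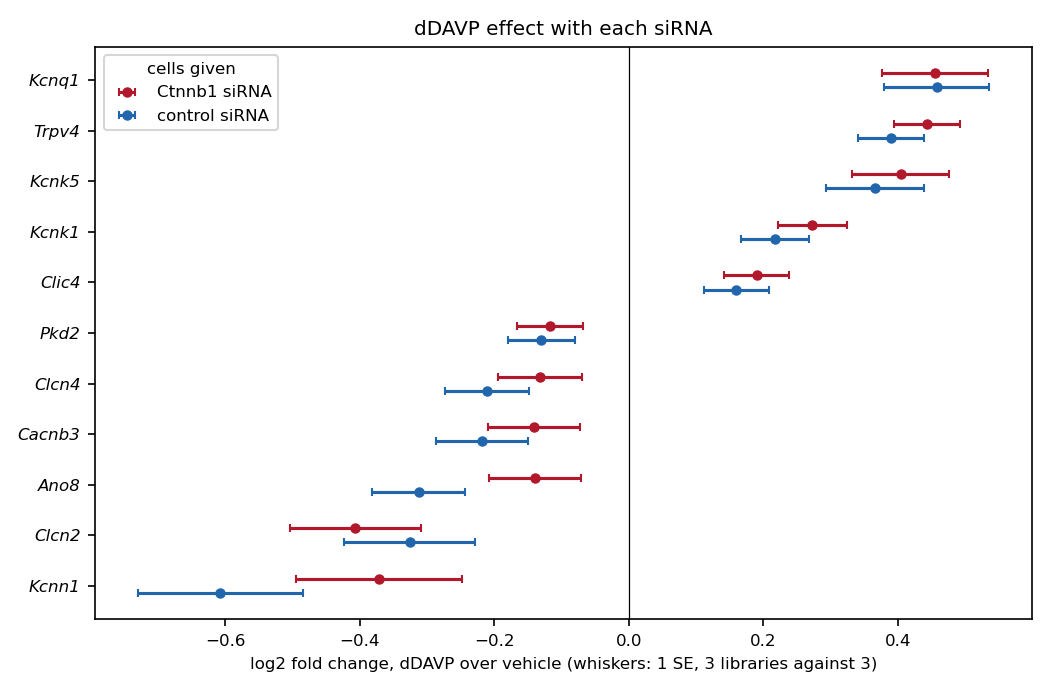
Log2 fold change of dDAVP over vehicle after Ctnnb1 siRNA (red) and control siRNA (blue) for channel genes called on average, other than Kcne2; points are edgeR estimates from 3 libraries against 3 and whiskers are 1 standard error. The estimates have the same sign with both siRNAs for every gene drawn, and lie closest together for Kcnq1 at 0.46 and 0.46.

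Ctnnb1 siRNA changed 3 channel genes when averaged over both treatments, all higher: Trpc1, Clic5 and Ano1. Of all tested genes 1.85% were called in this comparison (0.939% higher and 0.909% lower). The median log2 fold change was -0.018 over the 66 genes and -0.0007 over all tested genes. In the single comparisons edgeR called 0 of the 66 with dDAVP, where 0.267% of all genes were called (0.121% higher and 0.145% lower), and 0 of the 66 with vehicle, where 0.43% were (0.206% higher and 0.224% lower). There, 9 of the 66 channel genes with dDAVP and 13 with vehicle had an unadjusted p under 0.05 by edgeR. Over all tested genes the share with such a p was 11.7% with dDAVP and 8.09% with vehicle. DESeq2 called 1 channel gene with dDAVP (Trpc1) and 2 with vehicle (Ano1 and Clic5). Without Ctnnb1-siRNA dDAVP replicate 3, edgeR called 1 with dDAVP (Trpc1) and 1 with vehicle (Clic5).

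Trpc1, a calcium-permeable channel linked to store-operated entry, had 9.45, 9.96 and 9.54 CPM with Ctnnb1 siRNA against 6.54, 7.64 and 7.24 CPM with control siRNA under dDAVP, and 10.1, 10.3 and 9.28 CPM with Ctnnb1 siRNA against 8.18, 8.50 and 7.88 CPM with control siRNA under vehicle. All 6 Ctnnb1-siRNA libraries lay above all 6 control-siRNA libraries. The averaged log2 fold change was 0.35 ± 0.064 (1.28-fold, adjusted p = 0.00861), with 0.43 under dDAVP (adjusted p = 0.0624) and 0.27 under vehicle (adjusted p = 0.338).

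Clic5, which links membranes to cortical actin, had 19.7, 19.3 and 21.5 CPM with Ctnnb1 siRNA against 16.3, 17.8 and 16.0 CPM with control siRNA under dDAVP, and 19.4, 19.4 and 23.2 CPM with Ctnnb1 siRNA against 15.4, 16.3 and 15.8 CPM with control siRNA under vehicle. Again all Ctnnb1-siRNA libraries were the higher ones. Over both treatments the log2 fold change averaged 0.33 ± 0.059 (1.26-fold, adjusted p = 0.00757), with 0.27 under dDAVP (adjusted p = 0.204) and 0.39 under vehicle (adjusted p = 0.0577).

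Ano1 had 106, 103 and 103 CPM with Ctnnb1 siRNA against 91.9, 95.0 and 89.6 CPM with control siRNA under dDAVP, and 113, 102 and 104 CPM with Ctnnb1 siRNA against 89.3, 93.4 and 95.0 CPM with control siRNA under vehicle. The groups did not overlap under either treatment. Its averaged log2 fold change was 0.19 ± 0.036 (1.14-fold, adjusted p = 0.0127), and the call was lost without control-siRNA dDAVP replicate 3 (adjusted p = 0.0510). On log2(TPM + 1) none of the 3 genes was called (adjusted p = 0.117 for Trpc1, 0.166 for Clic5 and 0.315 for Ano1), while 3 others were called lower, among them Cacnb3 and Kcnk1; on that scale the median of all genes was -0.066.

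**Figure D5:**
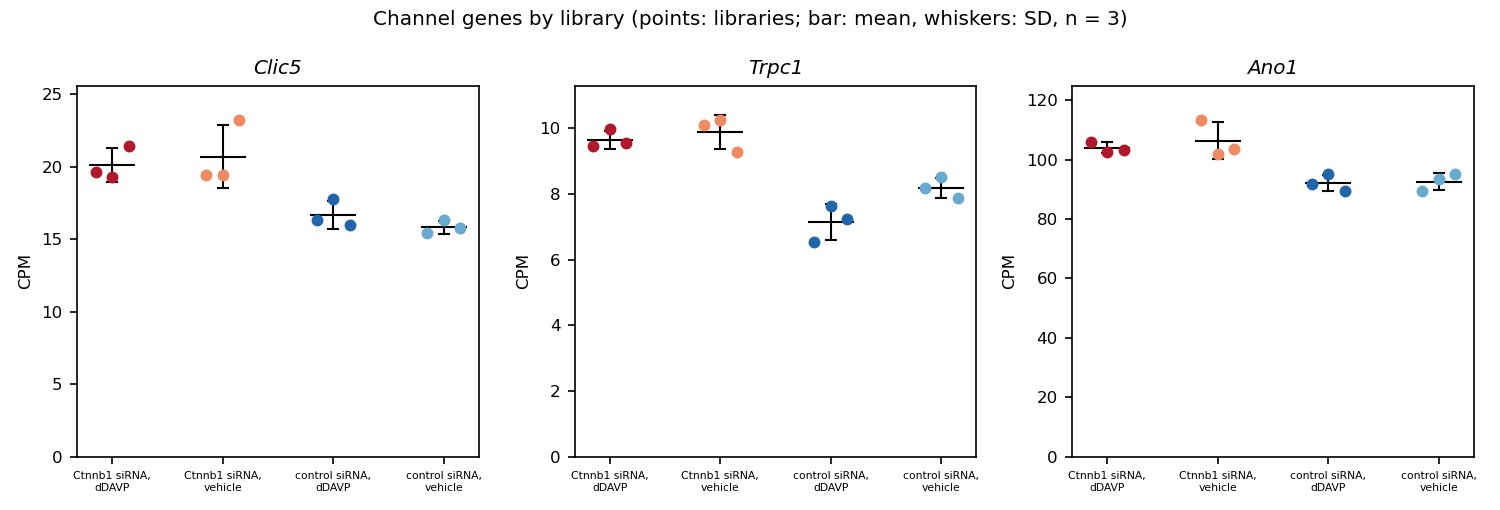
CPM of Clic5, Trpc1 and Ano1 in each of the 12 libraries (points), with the mean and SD of each group (bar and whiskers, n = 3); every axis starts at 0. For each gene the Ctnnb1-siRNA points lie above the control-siRNA points of the same treatment.

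Other averaged estimates for Ctnnb1 siRNA missed the threshold by edgeR. Kcnh2, at 0.436 TPM, gave -0.90 ± 0.23 (adjusted p = 0.0680), but was called lower by DESeq2 (adjusted p = 0.0292) and by edgeR without control-siRNA dDAVP replicate 1 (-1.02, adjusted p = 0.0384). Cacna2d4 gave a fitted 3.16 ± 0.75 (adjusted p = 0.0513). With dDAVP alone, where it had no reads in the control-siRNA libraries, Cacna2d4 had an adjusted p of 0.0501 for Ctnnb1 siRNA. Its Ctnnb1-siRNA libraries alone were enough to pass the filter on low counts, and its control-siRNA libraries alone were not. Both Cacna2d4 values are thus a description and no support for a difference. Kcnj16 gave an averaged 0.35 ± 0.11, Lrrc8a -0.02 ± 0.054 and Clic4 0.01 ± 0.034, none of them called. The highly expressed Kcnk1 gave -0.10 ± 0.036, Trpv4 -0.05 ± 0.035, Kcnq1 -0.06 ± 0.056, Clcn3 -0.09 ± 0.039, Pkd2 0.02 ± 0.035 and Piezo1 -0.12 ± 0.10.

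Genes that work with these channels were counted from 4 lists, chosen like the members with earlier results known. For calcium stores and store-operated entry, 2 of 18 tested genes were higher with dDAVP on average: Mcu, the pore of the mitochondrial calcium uniporter, and Stim2, a calcium sensor of the endoplasmic reticulum. Mcu had 76.9, 82.8 and 87.0 CPM with dDAVP against 71.9, 71.5 and 73.4 CPM with vehicle after Ctnnb1 siRNA, and 74.8, 72.2 and 74.8 CPM with dDAVP against 64.6, 64.2 and 60.8 CPM with vehicle after control siRNA. Its averaged dDAVP change was 0.21 ± 0.037 (adjusted p = 0.00216) and its averaged Ctnnb1-siRNA change 0.17 ± 0.037 (adjusted p = 0.0234), on the log2 scale. Stim2 gave 0.15 ± 0.038 for dDAVP (adjusted p = 0.0206). For comparison, 4.33% of all tested genes were higher and 2.54% lower with dDAVP on average. For Ctnnb1 siRNA on average, Mcu was the only gene of this list called, where 0.939% of all tested genes were higher and 0.909% lower. The median averaged log2 fold change was 0.043 over this list, -0.034 over the list of other cation channels, 0.017 over other anion channels and 0.038 over kinases, ligases and scaffolds, against -0.0046 over all genes.

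Of 14 tested genes for other cation channels 1 was called, near the 6.86% called among all genes: Tmem63a, a channel opened by osmotic and mechanical force, was higher with dDAVP at 0.17 ± 0.037 (adjusted p = 0.0108). Of 11 tested genes for other anion channels 1 was called, again near that share: Slco2a1, a prostaglandin transporter that also takes part in a large-conductance anion channel, was higher. It had 5.07, 4.50 and 7.14 CPM with dDAVP against 1.84, 2.55 and 2.31 CPM with vehicle after Ctnnb1 siRNA, and 7.89, 5.69 and 5.66 CPM with dDAVP against 2.16, 2.12 and 1.69 CPM with vehicle after control siRNA, with no overlap (averaged log2 fold change 1.504 ± 0.14, adjusted p = 5.27e-06). Among the 66 channel genes only Kcne2 and Trpv6, both with few reads, had higher averaged estimates. Of 15 tested kinases, ligases and scaffolds that act on distal nephron channels, 1 was higher and 1 lower, where 4.33% of all genes were higher and 2.54% lower. Nedd4l, the ubiquitin ligase that removes the epithelial sodium channel from the membrane, had 108, 113 and 131 CPM with dDAVP against 97.5, 95.8 and 89.4 CPM with vehicle after Ctnnb1 siRNA, and 135, 105 and 123 CPM with dDAVP against 94.4, 87.9 and 93.5 CPM with vehicle after control siRNA (0.35 ± 0.060, adjusted p = 0.00164). The scaffold gene Slc9a3r2 gave -0.27 ± 0.057 (adjusted p = 0.00672). For Ctnnb1 siRNA, no gene of the last 3 lists was called on average by edgeR, where 1.85% of all tested genes were. At such a share, lists this small can hold no call without differing from other genes.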

How the data were processed

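RNA was sequenced from 12 libraries in 4 groups of 3. Per the submitters' processing notes, FastQC, Trimmomatic, HISAT2, StringTie and DESeq2 were used with GRCm38 (mm10), without versions or settings, and the libraries were strand-specific per the labels' protocols. The authors deposited a column of whole-number counts for each library, named as read counts in the file headers. They also deposited 12 columns of TPM, used here for levels between genes and for an alternative; TPM sums are fixed, so high RNAs shift all others.

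Channel genes, gene lists and families were chosen with earlier results of these data known; noncoding transcripts and associated proteins were set apart as a family after the table was seen. In R 4.3.3 with edgeR 4.0.16, filterByExpr left 16508 genes with 99.97% of reads; TMM scaling and a robust quasi-likelihood model with 1 coefficient per group were fitted to all 12 libraries (common biological coefficient of variation 8.26%), with 7 contrasts tested and calls at an adjusted p under 0.05. CPM values are TMM-normalised; errors of fold changes are standard errors. Where a group had no reads, 3 counts per library served as floor, which covers counting error only. The model was tested on simulated data. The rule for naming took called channel genes, with the 2 highest of each family and known collecting duct channels. Alternatives were DESeq2 1.42.0, its size factors, no filter, 1 CPM in 3 libraries, limma 3.58.1 on log2 of TPM plus 1 or 0.1, a replicate block, the 2 groups alone, and each library left out. Promoters and locations came from RefSeq on GRCm38.p6 (77 of 77 matched), exon overlaps from GENCODE on GRCm38. Python 3.11.15 and matplotlib 3.10.9 drew figures. Some channel genes are included in the fits and counts but are not reported here by name or drawn.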

Additional observations from a re-analysis of the deposited data

How the results depend on the processing

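Of 30 calls of channel genes over the comparisons, 10 held in every alternative, 17 held without any 1 library, and 0 changed direction. DESeq2 called 2 channel genes for Ctnnb1 siRNA with vehicle, 1 with dDAVP and 5 on average (0, 0 and 3 by edgeR). Without the filter 1 was called for Ctnnb1 siRNA with dDAVP (Cacna2d4), and with the filter at 1 CPM 1 with vehicle (Clic5). With limma on log2 of TPM plus 1, dDAVP called 2 with Ctnnb1 siRNA and 1 higher and 4 lower with control siRNA (4 and 3 by edgeR); with TPM plus 0.1 it called 2 and 4. On either TPM scale Ctnnb1 siRNA called 0 higher and 3 lower on average, none of them shared with edgeR's 3. In fits of the 2 groups alone, dDAVP with Ctnnb1 siRNA called 4 and Ctnnb1 siRNA with vehicle 2.

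With each library left out, counts ranged from 4 to 7 for dDAVP with Ctnnb1 siRNA, 2 to 11 with control siRNA and 9 to 13 on average; from 0 to 1 for Ctnnb1 siRNA with dDAVP, 0 to 1 with vehicle and 2 to 4 on average; and were 0 for the interaction. For dDAVP with Ctnnb1 siRNA, leaving out vehicle replicate 2 or 3 of that siRNA gave 4. For dDAVP with control siRNA, leaving out dDAVP replicate 1 or 2 gave 4, dDAVP replicate 3 or vehicle replicate 2 or 3 gave 2, and Ctnnb1-siRNA dDAVP replicate 3 gave 11. Leaving out that last library also gave 1 call for Ctnnb1 siRNA with dDAVP (Trpc1) and 1 with vehicle (Clic5).

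Replicate numbers showed no clear pairing: the correlation of deviations ranged from -0.12 to 0.21 over 18 same-numbered pairs, and 2 exceeded 0.1. Over 36 differently numbered pairs it ranged from -0.27 to 0.31, and 3 exceeded 0.1. With 3 libraries per group, such correlations cannot show that samples were unpaired. With the replicate block, dDAVP called 5 channel genes with Ctnnb1 siRNA, 7 with control siRNA and 10 on average, and Ctnnb1 siRNA 0, 0 and 3. The calls not made with the block were Clcn2 and Clic4 with Ctnnb1 siRNA and Cacnb3, Kcne2 and Pkd2 on average. Genes below 0.1 TPM, 14 of 77, had too few reads for small changes to be detectable. The causes of these shifts were not tested. Without the shares of all tested genes called under each setting, these counts do not show whether channel genes moved more than other genes.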
